A study of Mus musculus with 3 samples.

Results

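Reads from the tRNA that carries glutamate and has the anticodon TTC (Glu-TTC) were followed in small RNA of the mouse epididymis, the duct in which sperm mature. The members were every row of the deposited tRNA tables whose name begins with tRNA-Glu-TTC, which gave 8 of 446 tRNA genes, and all 8 had reads in every library. The anticodon was selected on its read counts in these same libraries, with the knockout against wild-type comparison known, so the values below are a description and nothing is read from the counts of members called.

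The study set the small RNA of Alkbh3-/- mice beside that of wild-type mice, with 1 wild-type library and 2 Alkbh3-/- libraries, called knockout 1 and knockout 2 after their labels. Each library was made with a small RNA kit from RNA of 15 to 50 nt, which had been purified from 100 µg of total RNA by size on a 15% denaturing gel. The description of the wild-type library reads B6WT, whereas those of the knockout libraries carry a number and no such tag. The labels give no age and no count of animals. They also do not say whether the knockout libraries came from separate mice or whether sperm was left in the tissue. Since the tables used here hold RNA classes and tRNA genes, neither the loss of Alkbh3 nor the tissue could be checked against a transcript.

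Glu-TTC tRNA reads the glutamate codons GAA and GAG, and its anticodon begins with a uridine that carries a thiol and a methyl ester side chain, a modification it shares with Lys-TTT and Gln-TTG. The other glutamate tRNA, Glu-CTC, reads GAG. When a ribonuclease cuts a tRNA in its anticodon loop, a 5′ and a 3′ fragment result, and the 5′ fragments of glutamate and glycine tRNAs are known as the most abundant tRNA fragments of epididymis and maturing sperm. ALKBH3 is a demethylase that removes methyl groups from 1-methyladenosine and 3-methylcytidine in tRNA.

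The 8 genes fall into 3 groups by the number after the anticodon. In the naming used for genomic tRNAs, genes that share this number share the sequence of the mature tRNA, so a read from within it cannot be placed on 1 copy of a group. All 8 genes are 72 nt long, and all 8 share both end coordinates with a RefSeq tRNA gene of the mouse build GRCm38 (mm10). Glu-TTC-1 has 4 copies. Glu-TTC-1-1 lies at chr7:58399315-58399386 on the plus strand, Glu-TTC-1-2 at chr9:104408667-104408738 on the minus strand and Glu-TTC-1-4 at chr14:76152774-76152845 on the plus strand, all 3 outside any GENCODE gene. Glu-TTC-1-3 at chr13:23463535-23463606 (plus strand) lies in an intron of Btn1a1, which is transcribed from the other strand. Glu-TTC-2-1 is at chr1:34434812-34434883 (minus strand) in no gene, and Glu-TTC-2-2 at chr14:79481668-79481739 (plus strand) is in an intron of Elf1 on the same strand. Both Glu-TTC-3 genes are on chromosome 3 in introns of long noncoding RNA genes transcribed from the same strand, Glu-TTC-3-1 at chr3:96346675-96346746 (plus strand) in Platr30 and Glu-TTC-3-2 at chr3:96387405-96387476 (minus strand) in Gm17575. Read and gene sequences were not analysed here.

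Over 5 RNA classes the wild-type library summed to 15107055 reads and the knockout libraries to 15411457 and 21169908. Every level below is in reads per 1000000 of that total (RPM), and 3 reads, the limit that a count of 0 allows, are worth 0.199, 0.195 and 0.142 RPM in the same order. The tRNA class took 44.7% of the wild type against 36.5% and 38.1% of the knockout libraries, and miRNA took 15.1% against 24.8% and 30.7%. The make-up of the total therefore differed between the wild-type library and both knockout libraries. Intervals and limits reflect counting error alone, because amplified reads that bear no molecular identifier are not independent, and the spread between the knockout libraries may be technical. In whole tissue, fewer cells of a type and less RNA per cell cannot be told apart.

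Glu-TTC reads were more frequent in both knockout libraries than in the wild type. In the tRNA gene table Glu-TTC had 26355 reads in the wild-type library against 37420 and 61803 in the knockout libraries (1 and 2 in order). These are 1745, 2428 and 2919 RPM, a knockout mean of 2674 ± 347 (SD, n = 2) and 1.53 times the wild-type level. By reads Glu-TTC ranked 8 among the anticodons of the wild type and 7 and 6 in the knockout libraries. The fit over all anticodon sums (edgeR's quasi-likelihood model) gave a log2 change of 0.62 (SE 0.44), the change of rank 3 from the top among 45 tested. Glu-TTC was not called at an adjusted p below 0.05, where 11.1% of the 45 sums were called and 2.22% were called higher. The median anticodon stood at -0.29, and Glu-TTC lay 0.91 above it. Of 9 alternatives 2 called it, DESeq2 at 0.94 and the tRNA class total as library size at 0.88. The other 7 did not, among them TMM factors at 0.87, the per-library counts at 0.47 and the sum without Glu-TTC-3 at 0.43.

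The excess over the wild type was uneven over the 3 gene groups. Glu-TTC-3, the smallest group in the wild type, had 179 RPM there, 647 in knockout 1 and 491 in knockout 2. The knockout libraries were 3.62 and 2.74 times the wild type, with a mean of 569 ± 110 RPM (SD, n = 2), and the wild type lay below both. Glu-TTC-1 had 896, 1113 and 1484 RPM in the same order, ratios of 1.24 and 1.66. Glu-TTC-2 had 670, 668 and 945 RPM, ratios of 0.997 and 1.41, so the wild type lay between the knockout libraries. Glu-TTC-3 held 10.3% of the Glu-TTC reads in the wild type (95% Wilson interval 9.89 to 10.6%) against 26.6% (26.2 to 27.1%) and 16.8% (16.5 to 17.1%) in the knockout libraries. The share of Glu-TTC-2 was 38.4% against 27.5% and 32.4%.

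Gene by gene, both copies of Glu-TTC-3 stood apart from the other 6. Glu-TTC-3-1 had 962 wild-type reads against 3392 in knockout 1 and 3664 in knockout 2, which are 63.7, 220 and 173 RPM. Glu-TTC-3-2 had 1740, 6579 and 6725 reads, which are 115, 427 and 318 RPM. Knockout 1 was the higher of the knockout libraries for both copies, whereas knockout 2 was the higher for the remaining 6 genes. The fitted log2 changes were 1.63 (SE 0.49) for Glu-TTC-3-1 and 1.69 (SE 0.45) for Glu-TTC-3-2, ranks 3 and 2 from the top among 348 genes.

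Among the copies of Glu-TTC-1, the highest was Glu-TTC-1-2 with 314, 463 and 572 RPM in the wild type, knockout 1 and knockout 2. Glu-TTC-1-1 had 199.8, 224 and 303 RPM. Glu-TTC-1-3 had 191 RPM in the wild type, 210.1 and 297 in the knockout libraries. All 4 copies were higher in both knockout libraries, and Glu-TTC-1-4, with 191, 216 and 311 RPM, lay within 10 RPM of Glu-TTC-1-1 in each library. Fitted log2 changes were 0.40 for Glu-TTC-1-1, 0.72 for Glu-TTC-1-2, 0.40 for Glu-TTC-1-3 and 0.47 for Glu-TTC-1-4, with SEs of 0.38 to 0.43. Glu-TTC-2-1 had 343, 362 and 503 RPM and a log2 change of 0.34 (SE 0.39). Glu-TTC-2-2 had 327, 306 and 442 RPM and a log2 change of 0.19 (SE 0.39), and it is the one gene for which the wild type lay between the knockout libraries.

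**Figure D1:**
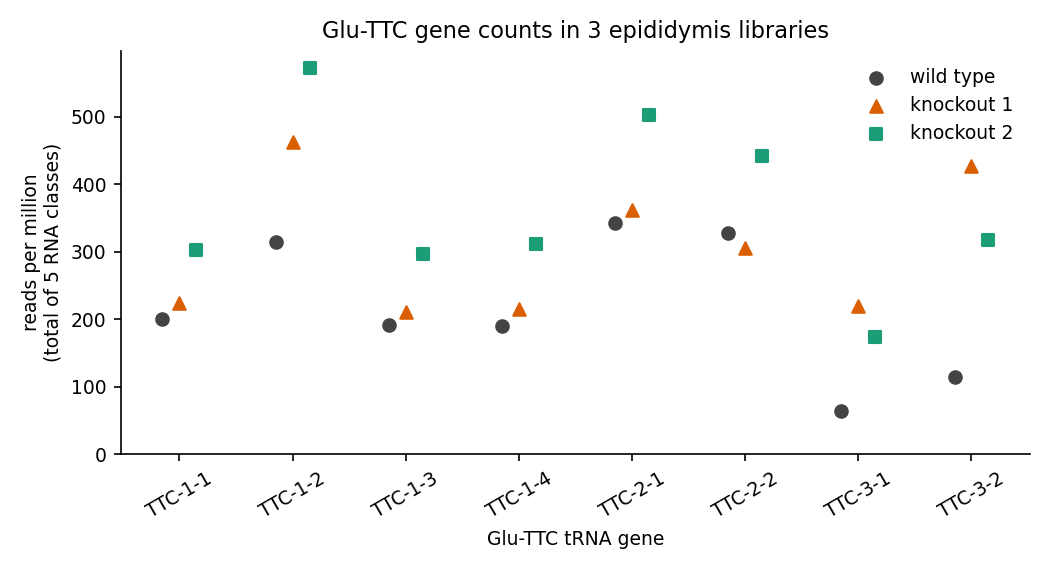
RPM (vertical axis) for the 8 Glu-TTC genes (horizontal axis), 1 point for each library. Both Glu-TTC-3 genes are lowest in the wild type and highest in knockout 1, while in the other 6 genes knockout 2 is highest.

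At an adjusted p below 0.05, 2 of the 8 genes were called higher (both copies of Glu-TTC-3) and 0 lower in the edgeR fit, where 3.16% of 348 genes were called higher and 11.8% in either direction. The same 2 had an unadjusted p below 0.05, among 54 of all 348 genes. All 8 genes were fitted above 0, with a median log2 change of 0.44 against -0.17 over all genes. The copies of a group can share reads, so these genes are not independent of each other. DESeq2 and TMM factors called Glu-TTC-1-2 as well, each among 18 of 348 genes, whereas the column sums of the table as library size called 0 Glu-TTC genes among 21 of 351 although the fitted changes of the Glu-TTC-3 copies were larger there (1.90 and 1.96). The library size without miRNA reads also called 0, where 1 of 351 genes was called in all, and the tRNA class total 1 among 22 of 351.

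The per-library tables hold more Glu-TTC reads in all, 39249 in the wild-type library and 49685 and 83614 in the knockout libraries (2598, 3224 and 3950 RPM). No source used here says how the gene table relates to them. For Glu-TTC-1-2 the gene table held 0.757 of the per-library count in the wild type, but 1.14 of it in knockout 1 and 0.974 in knockout 2. The per-library counts of that gene were 6263, 6282 and 12437 reads, so its excess in knockout 1 in the gene table was not seen there. In the per-library tables Glu-TTC-3 was 3.55 and 2.72 times the wild type, Glu-TTC-1 1.02 and 1.44 times, and Glu-TTC-2 0.906 and 1.30 times. The ratios of Glu-TTC-3 were alike in both kinds of table, and those of the other groups were smaller in the per-library tables.

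The per-library tables also sort the reads of each gene into 2 classes, which carry no description and are called first and second here, and list how many reads had each length. Glu-TTC reads were 16 to 66 nt long, and nearly all were of the first class. Its most frequent length was 34 nt in every library and in all 3 groups, while for Glu-CTC and for all other tRNAs together it was 31 nt. Glu-TTC accounted for 13.2%, 10.2% and 13.7% of all 34 nt first-class tRNA reads of the wild type, knockout 1 and knockout 2, although it held 0.608%, 0.939% and 1.10% of all tRNA reads. The copies of a group had nearly the same length profile. Their reads cannot be told apart, so that likeness is not a separate result. The share of reads that would have to change length to turn one profile into the other was 1.97 to 6.47% between copies of a group and 5.37 to 9.19% between Glu-TTC-1 and Glu-TTC-2 genes. Between these genes and Glu-TTC-3 genes it was 32.4 to 58.1%. Against Glu-CTC-1 it was 34.05 to 46.8% for Glu-TTC-1 and Glu-TTC-2 genes and 59.4 to 76.3% for Glu-TTC-3 genes, so that in knockout 1 the former lay nearer to Glu-CTC-1 than to Glu-TTC-3.

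**Figure D2:**
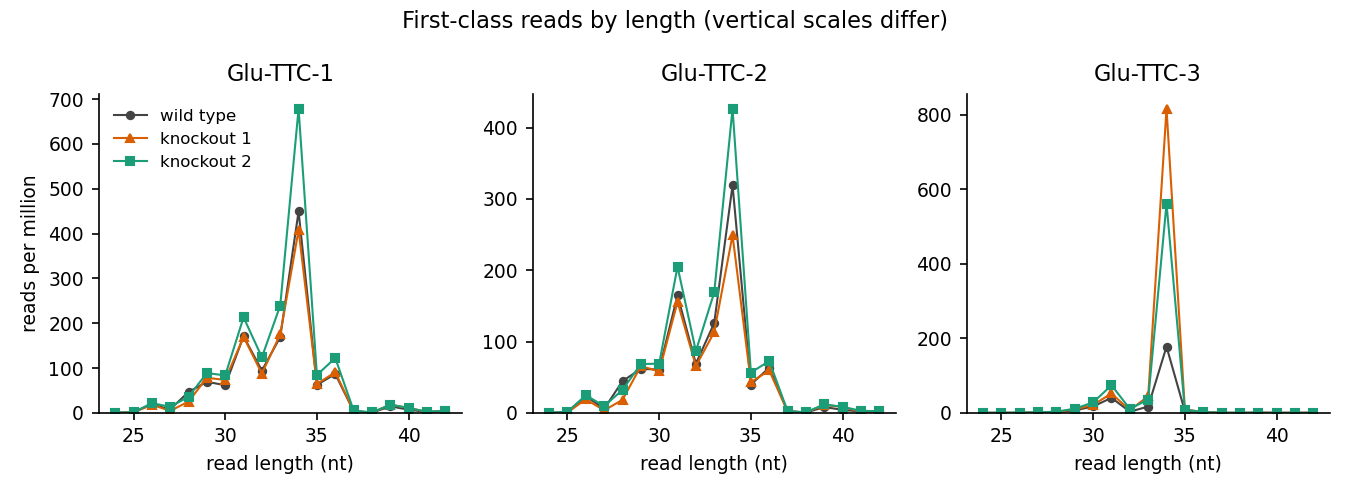
First-class RPM (vertical axis, a separate scale in each panel) by read length in nt (horizontal axis) for the 3 Glu-TTC groups, with 1 line for each library. Glu-TTC-3 has its main peak at 34 nt, where the wild type stands at 178 RPM and the knockout libraries at 816 and 562.

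The difference in Glu-TTC-3 lay mostly in its 34 nt reads. These stood at 178 RPM in the wild type (2684 reads), 816 in knockout 1 (12579 reads) and 562 in knockout 2 (11887 reads), ratios of 4.59 and 3.16. Reads of 31 nt from the same genes stood at 40.3, 52.0 and 74.0 RPM, ratios of 1.29 and 1.84, and those of 30 nt had ratios of 1.25 and 1.65. At 33 nt the values were 16.8, 44.6 and 35.6 RPM, ratios of 2.66 and 2.12. In the first class, 34 nt reads made up 65.5% of Glu-TTC-3 reads in the wild type (95% Wilson interval 64.0 to 66.9%), 84.5% (83.9 to 85.0%) in knockout 1 and 76.1% (75.4 to 76.7%) in knockout 2. As the authors placed the reads on the copies, the shares were 63.2%, 81.5% and 72.3% for Glu-TTC-3-1 and 66.8%, 86.0% and 78.1% for Glu-TTC-3-2.

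The other groups did not show a step of that size at 34 nt. In Glu-TTC-1 the 34 nt reads stood at 449, 408 and 678 RPM in the wild type, knockout 1 and knockout 2, and in Glu-TTC-2 at 319, 249 and 426 RPM. In both groups the wild type lay between the knockout libraries, with ratios of 0.908 and 1.51 in Glu-TTC-1 and of 0.781 and 1.34 in Glu-TTC-2. The first-class length at which both knockout libraries were lower in both of these groups was 28 nt. Glu-TTC-1 had 46.6 RPM of that length in the wild type against 25.1 and 35.9 in the knockout libraries, and Glu-TTC-2 had 44.4 RPM against 18.2 and 32.2. Summed over Glu-TTC, 28 nt reads had a fitted log2 change of -0.66 (SE 0.54) and were not called.

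Set beside Glu-CTC-1, whose reads outnumber it many times over, Glu-TTC-3 had close ratios at 29, 31, 33 and 34 nt. At 30 nt the ratio was close in knockout 1, but in knockout 2 that of Glu-TTC-3 was the higher. The 28 nt ratios of Glu-TTC-3 were 1.65 and 2.21 (22 reads in the wild type) against 1.21 and 1.58 in Glu-CTC-1. At 35 nt they were 2.11 and 1.89 against 2.55 and 2.27. They also lay apart at 32 nt, where Glu-TTC-3 had 2.19 and 3.43 (47 reads in the wild type) and Glu-CTC-1 1.80 and 2.27, and at 36 nt, where Glu-TTC-3 had 1.20 and 1.49 (22 reads in the wild type) and Glu-CTC-1 1.86 and 1.91. At 34 nt Glu-CTC-1 stood at 1926 RPM in the wild type against 8406 and 6197 in the knockout libraries, ratios of 4.36 and 3.22. At 33 nt its ratios were 2.84 and 2.27, and at 31 nt, its most frequent length, 1.28 and 1.68. For every 100 Glu-CTC-1 reads the gene table held 0.581 Glu-TTC-3 reads in the wild type against 1.19 and 0.856 in the knockout libraries. The ratios at 31, 33 and 34 nt were close while the totals of these tRNAs moved apart. The most frequent first-class length was 31 nt for Glu-CTC-1 and 34 nt for Glu-TTC-3 in every library. Whether this set the totals apart was not tested. The tRNAs of all other amino acids together had 4316, 4499 and 4275 RPM at 34 nt, ratios of 1.04 and 0.991. No source used here says how reads that match several tRNA genes were placed, and whether Glu-TTC-3 counts hold reads of Glu-CTC tRNA was not tested.

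**Figure D3:**
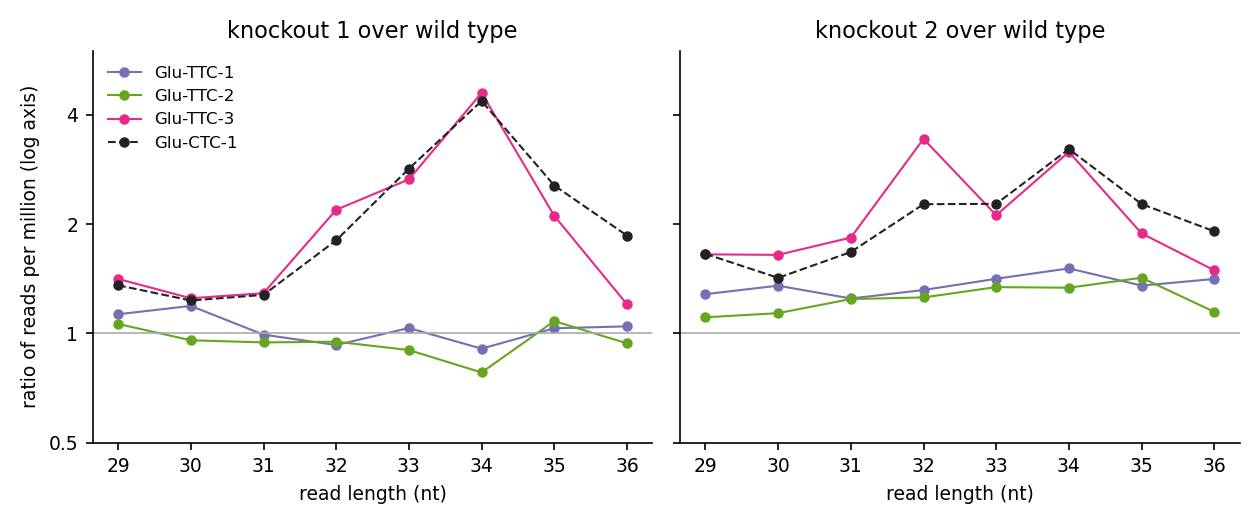
Ratio of RPM, each knockout library over the wild type (vertical log axis), by length of first-class reads in nt (horizontal axis) for the 3 Glu-TTC groups (solid) and Glu-CTC-1 (dashed), with a line at a ratio of 1. The curves of Glu-TTC-3 and Glu-CTC-1 climb to about the same height at 34 nt (4.59 and 4.36 in knockout 1, 3.16 and 3.22 in knockout 2). Those of Glu-TTC-1 and Glu-TTC-2 do not. At 32 nt the curves of Glu-TTC-3 and Glu-CTC-1 differ in knockout 2 (3.43 and 2.27), and above 34 nt Glu-TTC-3 lies below Glu-CTC-1 in both panels.

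For every 100 Glu-CTC reads there were 5.64 Glu-TTC reads in the wild type against 4.45 and 5.08 in the knockout libraries, a knockout mean of 4.77 ± 0.44 (SD, n = 2). The wild type was the highest of the 3 libraries, by 0.88 over the knockout mean, which is 0.845 of it. Glu-CTC itself had 30918, 54516 and 57504 RPM and was called higher, with a log2 change of 0.86 (SE 0.14).

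Reads of the second class were few in Glu-TTC and differed more between the genotypes than those of the first. There were 630 in the wild type against 1846 and 3545 in the knockout libraries, which are 41.7, 120 and 167 RPM, ratios of 2.87 and 4.02. First-class reads had ratios of 1.21 and 1.48. The second class made up 1.61% of Glu-TTC reads in the wild type (95% Wilson interval 1.49 to 1.73%), 3.72% (3.55 to 3.89%) in knockout 1 and 4.24% in knockout 2. They came mostly from Glu-TTC-1 and Glu-TTC-2, in which they made up 2.16%, 6.03% and 6.13% and 1.12%, 3.75% and 3.62% of the reads. In Glu-TTC-3 the shares were 0.775%, 0.501% and 0.516%, and in Glu-CTC 0.0457%, 0.0379% and 0.0464%.

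Short second-class reads of 20 and 22 nt carried most of this. Those of 22 nt numbered 105 in the wild type against 543 and 1364 in the knockout libraries, which are 6.95, 35.2 and 64.4 RPM, ratios of 5.07 and 9.27. Those of 20 nt numbered 183, 452 and 858 (12.1, 29.3 and 40.5 RPM), ratios of 2.42 and 3.35. The most frequent second-class length was 20 nt in the wild type and 22 nt in both knockout libraries. Glu-TTC-1 and Glu-TTC-2 moved alike, with 22 nt ratios of 5.09 and 9.54 in the former and of 5.03 and 8.63 in the latter. Glu-TTC-3 had 0 second-class reads of these lengths in all 3 libraries, under the 3-read limit given above.

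Most tRNA reads of this kind were Glu-TTC reads. Of all second-class tRNA reads of 22 nt, Glu-TTC held 105 of 174 in the wild type (60.3%, 95% Wilson interval 52.9 to 67.3%), 543 of 588 in knockout 1 (92.3%, 89.9 to 94.2%) and 1364 of 1469 in knockout 2 (92.9%, 91.4 to 94.1%). At 20 nt the shares were 72.3%, 91.3% and 86.8%. The 22 nt second-class reads of Glu-CTC came to 2.38, 1.95 and 3.64 RPM, and those of the tRNAs of all other amino acids together to 2.18, 0.973 and 1.32 RPM. Longer second-class reads of Glu-TTC went both ways. Those of 34 nt stood at 3.44, 15.1 and 15.6 RPM and those of 30 nt at 2.58, 7.85 and 13.7 RPM, while those of 40 nt stood at 6.22 RPM in the wild type against 2.08 and 3.02 in the knockout libraries.

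**Figure D4:**
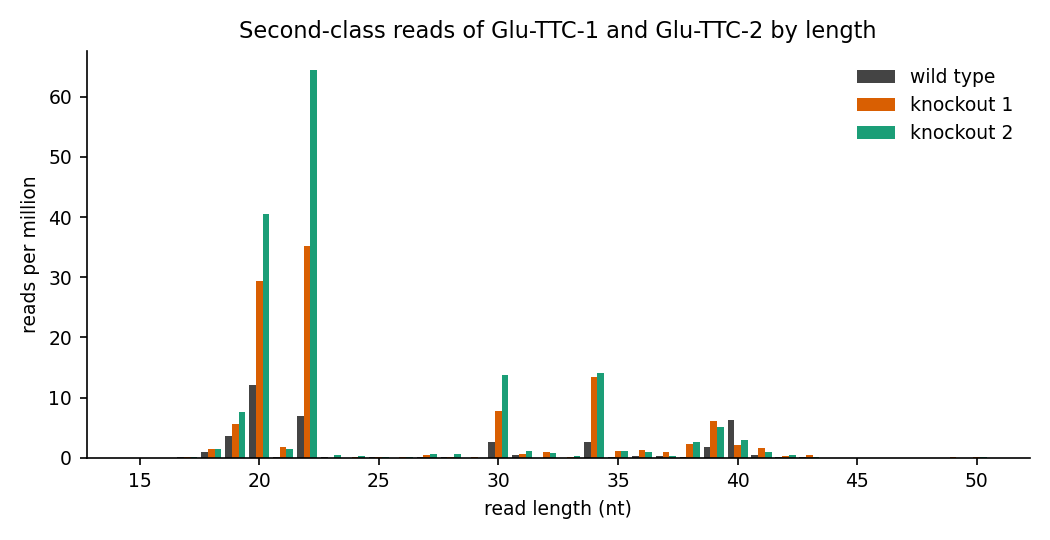
Second-class RPM (vertical axis) of Glu-TTC-1 and Glu-TTC-2 together by read length in nt (horizontal axis), with 1 bar for each library. At 22 nt the bars are at 6.95 RPM in the wild type and at 35.2 and 64.4 in the knockout libraries, and at 40 nt the wild type is the highest, at 6.22.

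Summed per read class and length, Glu-TTC gave 82 features, of which 48 passed the filter on low counts. At an adjusted p below 0.05, 2 of the 48 were called higher and 0 lower in the edgeR fit, where 1.2% of 834 features of all anticodons were called higher and 2.16% in either direction. Those called were second-class reads of 22 nt, with a log2 change of 2.84 (SE 0.69), and first-class reads of 50 nt, with 2.69 (SE 0.77). The latter numbered 30, 162 and 322 reads (1.99, 10.5 and 15.2 RPM), ratios of 5.29 and 7.66, while 50 nt first-class reads of the tRNAs of all other amino acids together also had ratios of 2.62 and 2.50. Of the 48 features 16 had an unadjusted p below 0.05, where 103 of all 834 did. Of the 48, 43 were fitted above 0, with a median log2 change of 1.03 against -0.01 over all 834. The filter needed enough reads in only 1 library, so some features passed through their knockout counts alone. Examples are first-class reads of 52 nt (0, 11 and 10 reads) and second-class reads of 32 nt (0, 14 and 18). The signs of such features followed from the filter, so the 43 and the median are no measure of a shift in Glu-TTC. DESeq2 called 5 Glu-TTC features among 28 of 834 in all, and TMM factors 0 among 0. With the column sums as library size 10 were called among 37 of 853, and with the tRNA class total 10 among 37 of 864.

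By length class, Glu-TTC reads of 15 to 24 nt made up 0.976% of the wild type (95% Wilson interval 0.883 to 1.08%), 2.32% of knockout 1 and 3.02% of knockout 2. Reads of 25 to 29 nt made up 11.1% against 7.70% and 7.97%. In each of these classes both knockout libraries departed from the wild type in 1 direction, by 1.70 and -3.31 percentage points in the mean. In the first class alone the former difference was 0.0097 points, and with the class ending below 28 nt the latter was -0.58. The main class, 30 to 36 nt, held 84.8%, 86.7% and 85.7%, and that of 37 to 50 nt 2.999%, 3.07% and 3.04%. Within Glu-TTC-1, Glu-TTC-2 and Glu-TTC-3 the mean difference at 30 to 36 nt was -1.71, -0.64 and 2.06 points. At 25 to 29 nt it was -1.91, -2.37 and -1.74 points, each smaller than that of the sum. The differences of the sum therefore also hold the larger share of Glu-TTC-3 reads in the knockout libraries. Glu-CTC had a lower 25 to 29 nt share in both knockout libraries too, 7.71% and 9.03% against 10.2%, while in the tRNAs of other amino acids together it was 3.64% in the wild type and 4.93% and 5.57% in the knockout libraries.

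Among other anticodons, those whose pair of log2 ratios lay nearest to Glu-TTC were Ser-AGA, Leu-CAG, Ala-CGC, Glu-CTC and Ser-GCT, at Euclidean distances of 0.051, 0.12, 0.37, 0.37 and 0.48 over the same 3 libraries. Of 36 anticodons with at least 1000 reads over the 3 libraries, 8 were higher in both knockout libraries and 20 lower in both. Ser-AGA had 28.4, 38.2 and 47.6 RPM in the wild type, knockout 1 and knockout 2, far below the level of Glu-TTC. In read lengths the most alike were Lys-TTT, His-GTG and Leu-TAG, for which 32.4%, 38.4% and 38.7% of reads would have to change length.

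**Figure D5:**
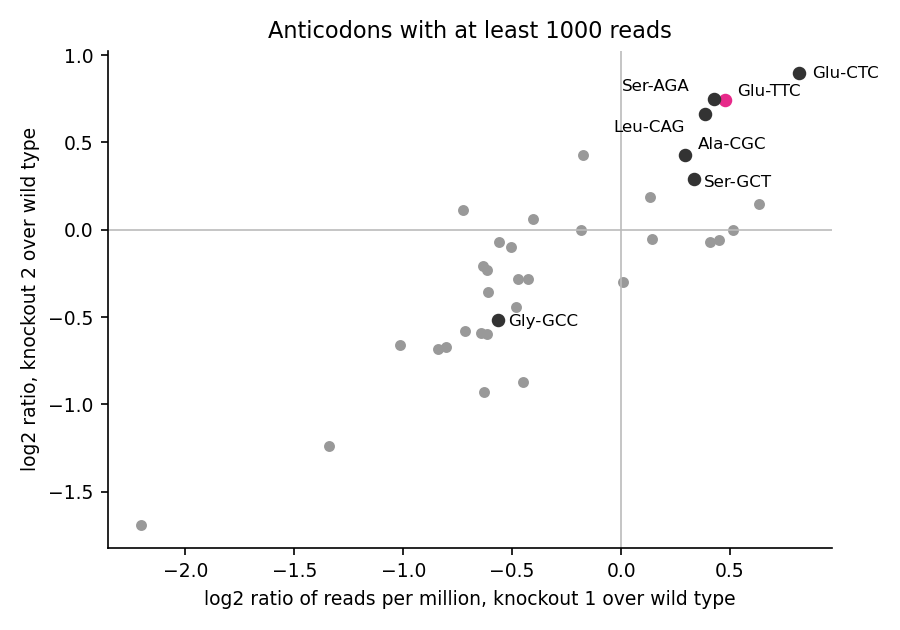
Log2 ratio of RPM in knockout 1 over the wild type (horizontal axis) and in knockout 2 over the wild type (vertical axis) for the 36 anticodons with at least 1000 reads, with Glu-TTC, its 5 nearest anticodons and Gly-GCC named. Glu-TTC lies in the upper right among 8 anticodons that were higher in both knockout libraries, while 20 were lower in both.

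The other tRNAs that carry the thiolated wobble uridine were fitted below 0, in the main fit and in all 9 alternatives, where Glu-TTC was fitted above 0. Lys-TTT had 429, 309 and 352 RPM, a fitted log2 change of -0.37 (SE 0.52), and Gln-TTG had 48.1, 29.3 and 32.2 RPM, a change of -0.65 (SE 0.32). Of these 2, edgeR called 0, against 11.1% of all 45 anticodons in either direction. The median of the 2 was -0.51 against -0.29 over all 45 anticodons. Scaling by other library sizes, TMM factors or DESeq2 moved the median of all anticodons up by 0.25 to 0.32. In a list of 10 tRNAs that are known to give many 5′ fragments in epididymis and sperm, Glu-TTC among them, 1 was called higher (Glu-CTC), 1 lower (Gly-GCC, at -0.54) and 8 were not called. Over all 45 anticodons 2.22% were called higher and 11.1% in either direction. Of the 10, 2 were fitted above 0, which were the glutamate tRNAs, and the median was -0.27. Under those scalings Asp-GTC, Gly-TCC and Lys-CTT were also fitted above 0, at up to 0.23, and Val-AAC under DESeq2 alone.

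Both Glu-TTC-3 genes lie in a cluster of tRNA genes on chromosome 3, 40659 bases apart. Within 100000 bases of either there were 21 other tRNA genes, 19 of them with at least 100 reads over the 3 libraries. Of these 19, 0 were higher in both knockout libraries, 18 were lower in both and 1 was split. Scaled to the sum of the gene table or to the tRNA class, 1 was higher in both, 15 lower in both and 3 split. The 19 are genes of Asn-GTT, His-GTG, Gly-CCC, Gln-CTG, Val-CAC and Lys-CTT. The sums of these anticodons over all their genes were also lower in both knockout libraries, or split for Lys-CTT. Of the 36 anticodons with at least 1000 reads, 20 were lower in both. The counts of neighbours therefore largely repeat the anticodon sums and show nothing particular to the cluster. Gly-CCC-2-2, whose distance to Glu-TTC-3-2 is 4424 bases, was at 0.85 and 0.91 of the wild type, and Gly-CCC-5-1, the most abundant neighbour, had 19291 RPM in the wild type and was at 0.63 and 0.65 of it. Where such a tRNA has identical copies elsewhere in the genome, its reads cannot be placed in the cluster.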

How the data were processed

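Small RNA of mouse epididymis was profiled in 3 libraries, 1 wild type and 2 Alkbh3-/-. The deposited tables hold read counts, not normalized, for 5 RNA classes, for 446 tRNA genes and, in 1 table per library, for 2 undescribed read classes per tRNA gene. A further deposited column, in a unit recorded as other, pairs each read length with its count. The counts in these lists added up to the gene's class count with 0 exceptions. Per the submitters' processing notes, cutadapt and mm10 were used. The sources used here name no aligner or counting tool and do not say how multi-matching reads were placed. The gene table summed to 59.4%, 59.4% and 59.1% of the tRNA class count (wild type, knockout 1, knockout 2) and the per-library tables to 95.5%, 94.1% and 94.2%.

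RPM were computed from the deposited counts and the 5-class total of 15107055 to 21169908 reads. The gene table gives the gene levels and the anticodon sums, and the per-library tables give the read lengths and classes. The genotypes were compared with edgeR 4.0.16 (R 4.3.3) in quasi-likelihood fits over all anticodons, genes or class and length sums, two-sided, with filterByExpr, no composition factor and Benjamini-Hochberg adjustment at 0.05. There is 1 residual degree of freedom, the lone wild type is assumed to vary like the knockout libraries, and the spread is a trend across features by abundance. DESeq2 1.42.0, TMM factors, other library sizes and filters, the per-library counts and leaving out a library or a gene group were alternatives. The SE given for an edgeR log2 change is its absolute value divided by the square root of the quasi-likelihood F statistic. Shares carry Wilson 95% intervals.

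The members and lists were chosen with earlier results of these data known. All 8 genes passed 100 reads and are named. Alike in pattern are the 5 anticodons, of those with at least 1000 reads, whose pair of log2 ratios lies nearest, and alike in length the 3 with the nearest read-length shares. A planned comparison of gene sequences was not made, and sequences were not analysed here. Gene positions are the files' own, with overlaps from GENCODE.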

Additional observations from a re-analysis of the deposited data

How the results depend on the processing

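Both copies of Glu-TTC-3 were fitted higher in the knockout under all 8 alternatives of the gene fit, at log2 changes of 1.61 to 1.97. Glu-TTC-3-1 was called in 5 of these and Glu-TTC-3-2 in 6. The number of Glu-TTC genes called, 2 in the main fit, was 0 with the column sums as library size, 0 without miRNA reads in the library size and 1 with the tRNA class total, where 21, 1 and 22 genes were called in all. It was 2 to 3 in the other 5. The causes of these changes were not tested. The Glu-TTC sum, at a log2 change of 0.62, was past the threshold with the tRNA class total (0.88) and with DESeq2 (0.94), and ran from 0.48 to 0.74 with 1 knockout library left out, values with no test. With 1 knockout library left out, Glu-TTC-3 ran from 1.46 to 1.86, Glu-TTC-1 from 0.31 to 0.73 and Glu-TTC-2 from -0.0038 to 0.50 on the log2 scale. The number of Glu-TTC class and length sums called, 2 in the main fit, was 5 with DESeq2, 0 with TMM factors, 10 with the column sums, 10 with the tRNA class total, 1 without miRNA reads and 1 with no filter, where 28, 0, 37, 37, 10 and 9 features of all anticodons were called. The ratio of Glu-TTC to Glu-CTC reads, 0.845 of the wild type, was 0.958 without Glu-TTC-2 and 0.740 without Glu-TTC-3. Knockout mean minus wild type in percentage points, the share of 15 to 24 nt reads (1.70) was 0.0097 in the first class alone, 7.60 in the second class alone and 0.86 without Glu-TTC-1, the group with the most reads. The share of 25 to 29 nt (-3.31) was -0.58 with 28 nt as the lower limit of the next class, 0.25 in the second class and -4.40 without Glu-TTC-1. That of 30 to 36 nt (1.35) was -1.38 with the 28 nt limit, 2.88 in the first class, 5.22 in the second and 3.51 without Glu-TTC-1. That of 37 to 50 nt (0.056) was 0.10 in the first class, -13.7 in the second and -0.11 without Glu-TTC-1. No paired analysis was possible because the wild type is 1 library, so the groups share fewer than 2 replicate numbers. Depth limits the second class, at 630 Glu-TTC reads in the wild type, and the rarer lengths, such as 22 Glu-TTC-3 reads of 36 nt there.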
